A study of Mus musculus with 7 samples.

Results

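The SOX family factors described here are 10 mouse transcription factors, Sox2, Sox3, Sox21, Sox15, Sox4, Sox11, Sox12, Sox5, Sox13 and Sox9. They were taken from an RNA-seq count table by their gene symbols, and they are 10 of the 55484 genes listed and 10 of the 20 genes of the SOX family, the sex-determining gene Sry included. RNA was measured in mouse embryonic fibroblasts (MEFs, 4 libraries), which are connective tissue cells grown out of mouse embryos, and in mouse embryonic stem cells (mESCs, 3 libraries), which are pluripotent cells derived from the early embryo. Both were labelled as of C57/Bl6 background, and the labels named no further allele, treatment, age or clone. They did not say that libraries came from separate cultures or animals, so p-values measure the spread between these libraries, which may be technical. The study calls its replicates biological, but it states fewer MEF replicates than there are MEF libraries and does not name which were meant. The extraction text attached to the samples describes blood stem cells sorted from mice, and how the MEFs and mESCs were grown for RNA is not given in the sources used here. For its chromatin libraries the study sorted THY1+ fibroblasts and THY1-/SSEA1+/EPCAM+ stem cells, and whether the RNA came from cells sorted in this way is not stated.

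SOX factors bind DNA through an HMG box, a domain that inserts into the minor groove and bends the double helix, and the family is divided into subgroups A to H by the likeness of this box. Subgroup B1 (Sox1, Sox2, Sox3) is known from pluripotent cells and neural progenitors, where SOX2 binds side by side with the POU factor OCT4, the product of Pou5f1. Subgroup B2 (Sox14, Sox21) acts mainly as repressors on the sites of subgroup B1, and Sox15 is the single member of subgroup G. Subgroup C (Sox4, Sox11, Sox12) is known from embryonic mesenchyme and young neurons. SOX9 of subgroup E drives cartilage formation together with SOX5 and SOX6 of subgroup D, which lack an activation domain of their own.

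The coding bases of the HMG box are shown first because they are what the 10 genes have in common and because near-identical copies could share reads. Each line gives 45 coding bases of the box, starting a few codons inside the window compared below. They were read from the GENCODE M21 transcripts of GRCm38, 5′ to 3′ on the coding strand, with the bases that differ from Sox2 in capitals. All 10 stretches lie within a coding exon.
Sox2 (chr3:34650548-34650592, plus strand): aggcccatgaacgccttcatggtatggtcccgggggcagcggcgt
Sox3 (chrX:60892951-60892995, minus strand): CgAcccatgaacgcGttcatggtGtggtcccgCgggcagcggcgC
Sox21 (chr14:118235564-118235608, minus strand): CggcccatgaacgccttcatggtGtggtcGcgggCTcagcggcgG
Sox15 (chr11:69655517-69655561, plus strand): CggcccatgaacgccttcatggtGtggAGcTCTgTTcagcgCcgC
Sox4 (chr13:28952797-28952841, minus strand): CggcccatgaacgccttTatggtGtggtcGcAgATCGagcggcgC
Sox11 (chr12:27342214-27342258, minus strand): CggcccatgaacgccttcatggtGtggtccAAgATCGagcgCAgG
Sox12 (chr2:152397531-152397575, minus strand): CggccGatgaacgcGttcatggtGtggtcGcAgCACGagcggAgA
Sox5 (chr6:143841229-143841273, minus strand): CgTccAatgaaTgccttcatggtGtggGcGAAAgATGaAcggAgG
Sox13 (chr1:133385521-133385565, minus strand): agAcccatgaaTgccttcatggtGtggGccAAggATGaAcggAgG
Sox9 (chr11:112782903-112782947, plus strand): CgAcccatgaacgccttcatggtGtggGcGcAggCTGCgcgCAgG

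Over a window of 237 coding bases, Sox3 and Sox21 each matched Sox2 at 87.8% of positions, and Sox15 matched at 73.0%. Sox9 matched Sox2 at 70.9%, Sox4 at 68.8%, Sox11 at 67.9% and Sox12 at 67.5%, and the subgroup D genes were the most distant of the 10 factors, with 62.0% for Sox13 and 60.3% for Sox5. Sox4 and Sox11 matched each other at 89.5%. Within subgroup C the pairs ranged from 84.4% to 89.5%, and the closest pair of a subgroup C gene with a gene outside it, Sox11 with Sox21, reached 73.0%. Subgroups B1 and B2 were not separated on this measure, since Sox3 and Sox21 matched at 88.2%.

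**Figure D1:**
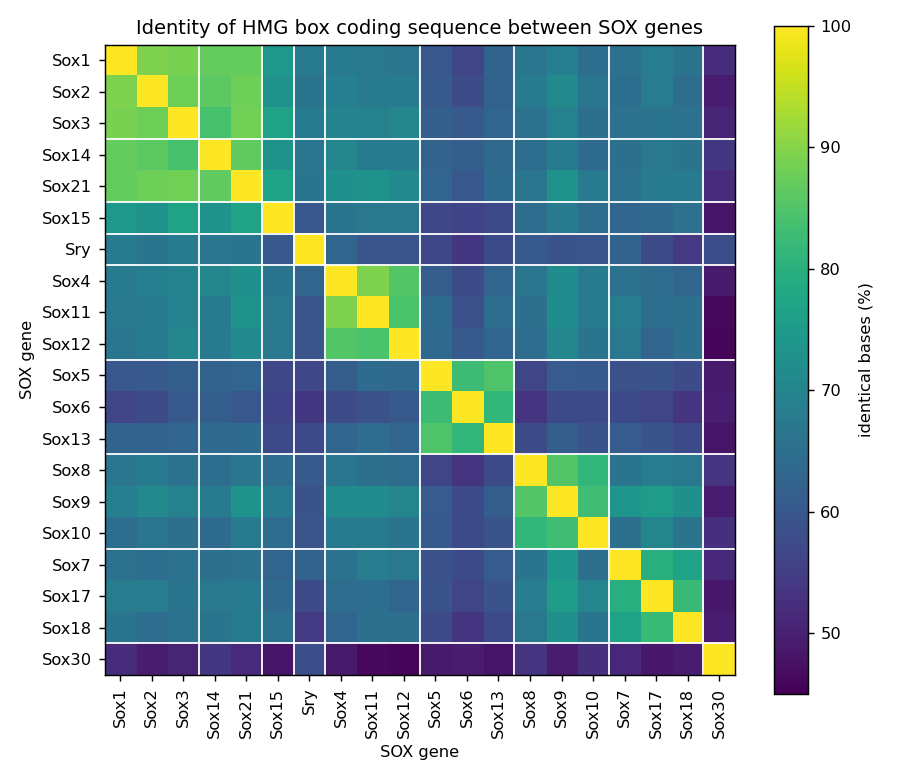
Percent of identical bases over the HMG box coding window for every pair of the 20 SOX genes, with white lines between subgroups in the order B1, B2, G, A, C, D, E, F and H. The brightest blocks along the diagonal are the subgroups, subgroups B1 and B2 form 1 block, and Sox30 in the last line is below the others.

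Despite this likeness the transcripts were separable in the annotation. No stretch of 50 bases of Sox2, Sox15, Sox3, Sox11, Sox12, Sox13 or Sox9 transcripts occurred in the transcript of another gene on either strand. Sox4 shared 54.1% of its 50-base stretches, Sox21 17.8% and Sox5 8.98%, in each case with a gene annotated on the opposite strand of the same locus (Gm26735, Gm4675 and Sox5os1). Whether the counting used strand is not stated, so reads of these 3 genes and of their antisense partners cannot be told apart if it did not. No counts could be matched to the symbol Gm26735, so its level could not be set beside that of Sox4. Sox5os1 had 0 counts in every library. Gm4675 was read at 0, 7, 1 and 0 counts in MEFs and at 20, 17 and 13 in mESCs, so it moved in the same direction as Sox21.

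Library totals ran from 6528643 to 11441278 counts on genes, and the values below follow the order of the totals 11441278, 7312679, 9176467 and 6528643 for MEFs and 8193825, 8057985 and 7462710 for mESCs. CPM is a gene's count scaled to a common library total, the usual unit of expression per library, and log2CPM was scaled by edgeR's TMM method with a prior count of 2. Errors of log2 fold changes are standard errors, and differences are mESC minus MEF. A count of 0 allows up to 3 counts, which is 0.262 to 0.460 CPM in these libraries, and this floor covers counting error only. The identity of the libraries was looked at with marker lists. All 11 pluripotency markers were higher and all 11 fibroblast markers lower in mESCs, beside 22.8% higher and 25.0% lower over all tested genes. These lists were chosen with earlier results of these data known. The sort markers Thy1 and Epcam had log2 fold changes of -5.63 ± 0.176 (SE) and 4.48 ± 0.18. Fut4, the gene listed here for the SSEA1 epitope, had too few counts to be tested. It was not higher in mESCs, at 1.14 CPM in MEFs and 0.97 CPM in mESCs with overlapping ranges. Other genes that can make this epitope were not looked at, so SSEA1 itself was not assessed. Of the blood stem cell markers, 6 genes, the summed level was 13.8 to 18.3 CPM in MEFs and 1.46 to 4.72 CPM in mESCs.

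Of the 10 factors, 7 differed between the cell types. Sox2, Sox15 and Sox21 were higher in mESCs, and Sox4, Sox11, Sox9 and Sox5 were lower at an adjusted p under 0.05 (quasi-likelihood test of edgeR, adjusted by Benjamini-Hochberg over 16580 genes, 4 MEF and 3 mESC libraries). Sox12 and Sox13 did not pass, and Sox3 had too few counts to be tested. Among all tested genes 47.9% were called, 22.8% as higher and 25.0% as lower in mESCs, so a call as such was common in this comparison. MEF and mESC libraries were apart in log2CPM for the same 7 factors, and they were apart in 52.1% of all tested genes. The median log2 fold change of the 9 tested factors was -0.38, against 0.04 over all tested genes. In bulk RNA, fewer cells that hold a transcript and less of it per cell cannot be told apart.

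**Figure D2:**
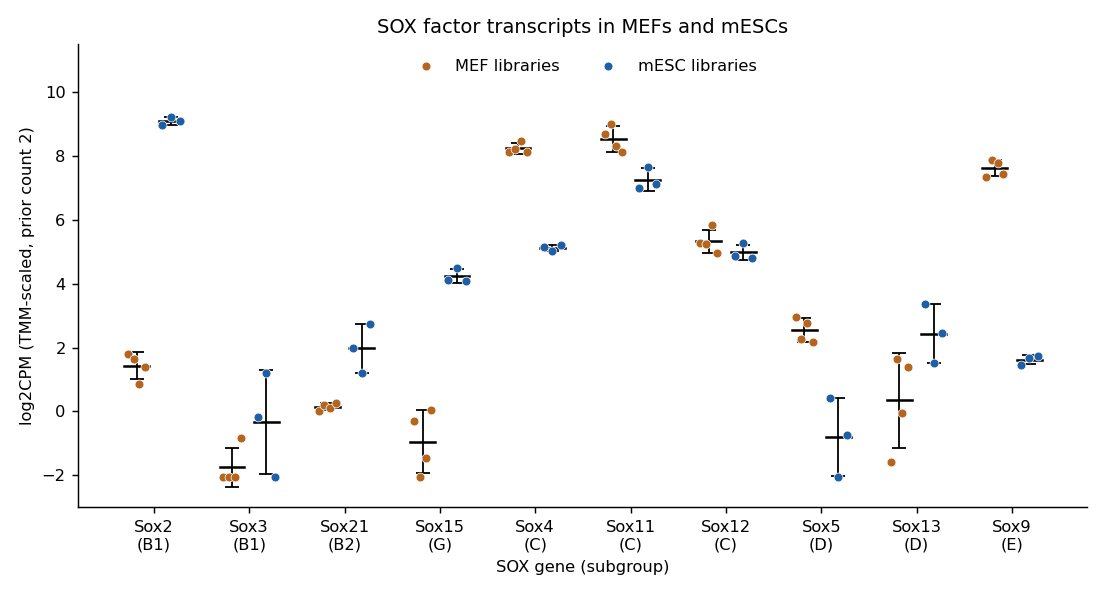
Level of each of the 10 SOX factors as TMM-scaled log2CPM on the vertical axis, with 1 point per library, the horizontal bar at the mean and the whiskers at ± 1 SD (4 MEF libraries in brown, 3 mESC libraries in blue). Sox2 and Sox15 are far higher in mESCs, Sox4, Sox9 and Sox5 far higher in MEFs, and the points of Sox3, Sox12 and Sox13 overlap.

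Sox2, the B1 factor that holds stem cells in the pluripotent state together with OCT4, had the largest fitted difference among the 13 SOX genes with enough counts to be tested. It was read at 34, 19, 13 and 15 counts in the MEF libraries and at 4601, 5270 and 4596 counts in the mESC libraries. Every mESC library was far above every MEF library, and none of the MEF libraries was at 0. The levels were 2.32 ± 0.663 CPM (SD, n = 4) in MEFs and 610 ± 46.5 CPM (SD, n = 3) in mESCs, a log2 fold change of 7.74 ± 0.239 (SE) with an adjusted p of 1.11e-08 in edgeR. Among all tested genes, the level of Sox2 was at percentile 22.4 in MEFs and 98.6 in mESCs. The exact two-sided permutation test over libraries gave p = 0.0286, the smallest that 4 against 3 libraries allow, and it gave the same p for the other 6 factors called.

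The counts of Sox2 in MEFs were 0.385% of its level in mESCs when libraries were pooled. For the 11 pluripotency markers, which are transcripts of pluripotent cells and not of fibroblasts, the same share ran from 0.324% to 1.64% with a median of 0.546%. Sox2 thus sat inside the range of these markers in MEFs, and whether its MEF counts came from the fibroblasts or from carried-over stem cell RNA was not tested. The gene is a single exon of 2057 bases at chr3:34650405-34652461 on the plus strand, inside the span of the noncoding gene Sox2ot, with no exon in common. Sox2ot, named after its values were seen, had 24, 17, 19 and 18 counts in MEFs and 74, 37 and 41 in mESCs. Its log2 fold change was 1.18 ± 0.390 (adjusted p = 0.0281, edgeR), far below that of Sox2.

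Sox3, the X-linked B1 relative of Sox2, was near the floor in both cell types, with 0, 0, 0 and 2 counts in MEFs and 6, 18 and 0 in mESCs. The library of 7462710 counts, 1 of the 3 mESC libraries, held none, so the cell types overlapped. The pooled level in mESCs was 17.4 times that in MEFs, with a 95% counting interval of 4.33 to 152 that covers counting error only (exact permutation p = 0.257). In the same subgroup Sox1, a marker of neural progenitors that is not among the 10 factors, had 11, 0, 2 and 1 counts in MEFs and 36, 49 and 26 in mESCs (log2 fold change 3.33 ± 0.785, edgeR adjusted p = 0.00508). The MEF library of 11441278 counts decided much of this size, as the log2 fold change of Sox1 was 4.75 without it. Sox1 and Sox3 in mESCs were therefore well below Sox2, at 0.963 and 0.479 CPM per kilobase of exon against 297 CPM per kilobase.

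Sox21, the B2 repressor, had 8, 6, 7 and 6 counts in MEFs and 34, 18 and 55 in mESCs. The cell types did not overlap, and the 3 mESC libraries were more spread out than the MEF libraries. The level was 0.80 ± 0.0933 CPM (SD, n = 4) in MEFs and 4.58 ± 2.60 CPM (SD, n = 3) in mESCs, and the log2 fold change was 2.22 ± 0.525 with an adjusted p of 0.00517 in edgeR (exact permutation p = 0.0286). On pooled counts the ratio was 5.76 with a 95% counting interval of 3.75 to 9.14. Leaving out 1 library at a time kept the call, with a highest adjusted p of 0.0499 (edgeR), just under the threshold. Sox14, the other B2 gene, had 0 counts in all MEF libraries and 0, 0 and 4 in mESCs.

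Sox15, the subgroup G factor, which is known to be present beside Sox2 in mouse stem cells, had the second largest difference among the 3 higher factors. It had 6, 0, 1 and 5 counts in MEFs and 158, 196 and 142 in mESCs. All mESC libraries were far above the MEF libraries, of which 2 were at or below the floor of 3 counts. The level in mESCs was 20.9 ± 2.99 CPM (SD, n = 3) against 0.350 ± 0.358 CPM (SD, n = 4) in MEFs, for a log2 difference of 5.58 ± 0.579 and an adjusted p of 2.07e-05 in edgeR. The pooled ratio was 60.1, with a 95% counting interval of 34.1 to 117. Sox15 rose from percentile 3.21 of all tested genes in MEFs to 61.5 in mESCs. Its exons share 31 bases with Mpdu1 on the opposite strand, 3.60% of its exon bases, and Mpdu1 had 39 to 57 counts in MEFs and 55 to 93 in mESCs.

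Subgroup C made up the bulk of the SOX counts of fibroblasts. Sox4 and Sox11 were lower in mESCs, and Sox12 did not pass. Sox4 was read at 2884, 1943, 2957 and 1761 counts in MEFs and at 324, 283 and 310 in mESCs. The MEF libraries were all far above the mESC libraries, and the libraries within each cell type were close on the CPM scale, at 277 ± 30.8 CPM (SD, n = 4) and 38.7 ± 3.29 CPM (SD, n = 3). The log2 fold change was -3.12 ± 0.160 with an adjusted p of 1.49e-07 in edgeR. Sox4 nevertheless stayed at percentile 73.7 of all tested genes in mESCs, down from 96.2 in MEFs.

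Sox11 had 4321, 3357, 2627 and 1740 counts in MEFs and 1166, 1783 and 1183 in mESCs. The lowest MEF library, at 6528643 total counts, and the highest mESC library, at 8057985, came near each other but did not overlap. The levels were 347 ± 88.8 CPM (SD, n = 4) and 174 ± 41.7 CPM (SD, n = 3) (log2 fold change -1.28 ± 0.241, edgeR adjusted p = 0.00129). Against a fold change of 2 in place of no change, the adjusted p of Sox11 was 0.145 (edgeR), so a difference larger than 2-fold was not shown, and 6 of the 10 factors passed that stricter test against 24.1% of all tested genes. Sox11 remained the SOX factor with the second most counts in mESCs, at percentile 93.0 of all tested genes.

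Sox12, the third member of subgroup C, had 398, 249, 474 and 196 counts in MEFs and 268, 335 and 236 in mESCs. The ranges overlapped, with 37.6 ± 9.58 CPM (SD, n = 4) and 35.3 ± 5.46 CPM (SD, n = 3). The log2 fold change of -0.38 ± 0.232 did not pass (adjusted p = 0.212, edgeR, exact permutation p = 0.171). The 3 closely related genes therefore stood at -3.12, -1.28 and -0.38, and differences between these fold changes were not tested.

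Subgroup E held the largest fall. Sox9, the master regulator of cartilage, had 1697, 1522, 1839 and 1088 counts in MEFs and 23, 26 and 26 in mESCs. No mESC library came near a MEF library, and the 3 mESC libraries were almost equal. The level fell from 181 ± 28.2 CPM (SD, n = 4) to 3.17 ± 0.342 CPM (SD, n = 3), a log2 fold change of -6.11 ± 0.232 with an adjusted p of 2.46e-08 in edgeR. That took Sox9 from percentile 93.6 of all tested genes to 23.0. Its relative Sox8 had 529, 205, 254 and 129 counts in MEFs and 114, 113 and 98 in mESCs (log2 fold change -1.44 ± 0.295, edgeR adjusted p = 0.00217). Sox10, the neural crest and glia factor of the same subgroup, had 6 to 8 counts in MEFs and 3 to 5 in mESCs and was not tested. With libraries pooled, the level of Sox9 in mESCs was 1.77% of that in MEFs. The 11 fibroblast markers summed to 389 to 440 CPM in mESCs and 21658 to 37292 CPM in MEFs. Whether the Sox9 counts in mESCs came from the stem cells or from carried-over fibroblast RNA was not tested.

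In subgroup D, Sox5 had 78, 30, 55 and 27 counts in MEFs and 10, 0 and 3 in mESCs. The cell types did not overlap, and 2 of the 3 mESC libraries were at or below the floor. The level was 5.26 ± 1.36 CPM (SD, n = 4) against 0.541 ± 0.622 CPM (SD, n = 3), and the fitted log2 difference was -3.53 ± 0.763 (edgeR adjusted p = 0.00303). Leaving out 1 library at a time gave -4.93 to -2.97, with Sox5 past the threshold each time, and the value of -4.93 was that without the mESC library of 8193825 counts.

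Sox13 went the other way on average, with 1, 19, 6 and 15 counts in MEFs and 92, 23 and 44 in mESCs. The MEF libraries spread widely, from 1 to 19 counts, and in TMM-scaled log2CPM the highest of them passed the lowest mESC library. The log2 fold change of 2.01 ± 0.80 did not pass (adjusted p = 0.0600, edgeR, exact permutation p = 0.143). This call depended on single libraries, as the adjusted p was 0.0360 without the MEF library of 7312679 counts and 0.0474 without the mESC library of 8057985 counts (edgeR), and it was 0.270 without the mESC library of 8193825 counts. Sox6, which pairs with SOX5 in cartilage, had 3, 12, 13 and 19 counts in MEFs and 25, 14 and 11 in mESCs (log2 fold change 0.19 ± 0.692, edgeR adjusted p = 0.846), a difference that turned to -0.19 without the MEF library of 11441278 counts and also without the mESC library of 8193825 counts, over a range of -0.19 to 0.63.

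**Figure D3:**
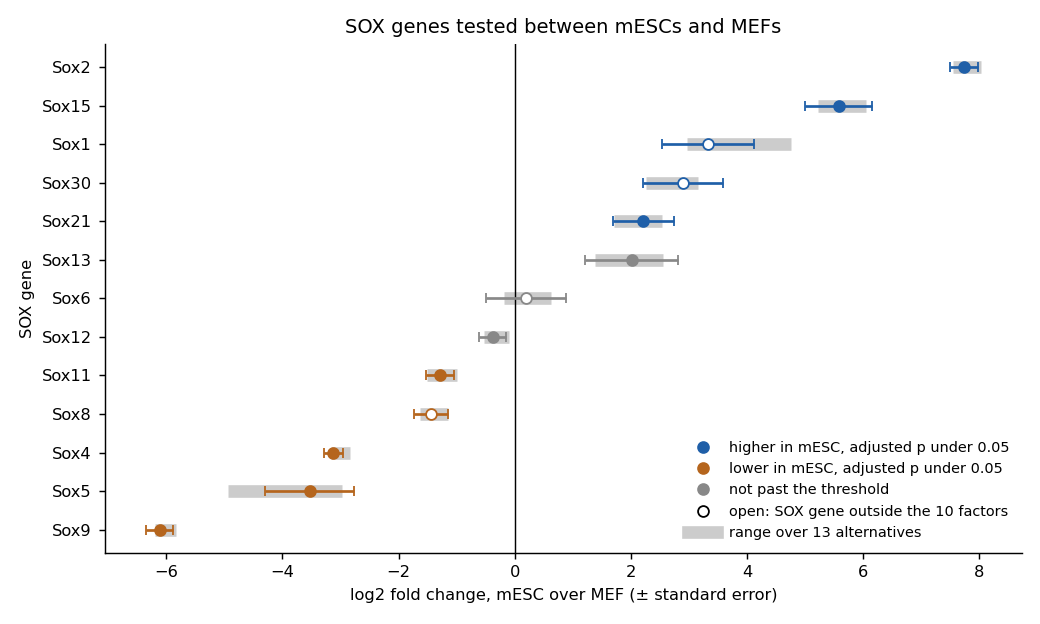
Fitted log2 fold change of mESCs over MEFs on the horizontal axis for the 13 SOX genes with enough counts to be tested, with whiskers at ± 1 standard error and a grey bar for the range over 13 alternative analyses. Filled points are 9 of the 10 factors and open points other SOX genes, and only the bar of Sox6 crosses 0.

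Summed over all 20 SOX genes, the family took a similar part of the RNA in both cell types. The sum was 888 ± 98.1 CPM (SD, n = 4) in MEFs, from 770 to 1008, and 927 ± 87.2 CPM (SD, n = 3) in mESCs, from 851 to 1022. After TMM scaling the order turned, with 968 ± 134 against 830 ± 94.0 CPM, so the direction of this small difference depends on the scaling and the ranges overlapped. What changed was the make-up. Sox2 was 0.264% ± 0.0785 of the SOX counts in MEFs (SD, n = 4) and 66.0% in mESCs, from 64.0% to 67.9% over the 3 libraries. Subgroup C went from 74.6% to 26.6%, subgroup E from 23.9% to 1.88% and Sox15 from 0.0429% to 2.25%. Subgroup D held 0.940% and 1.04%.

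**Figure D4:**
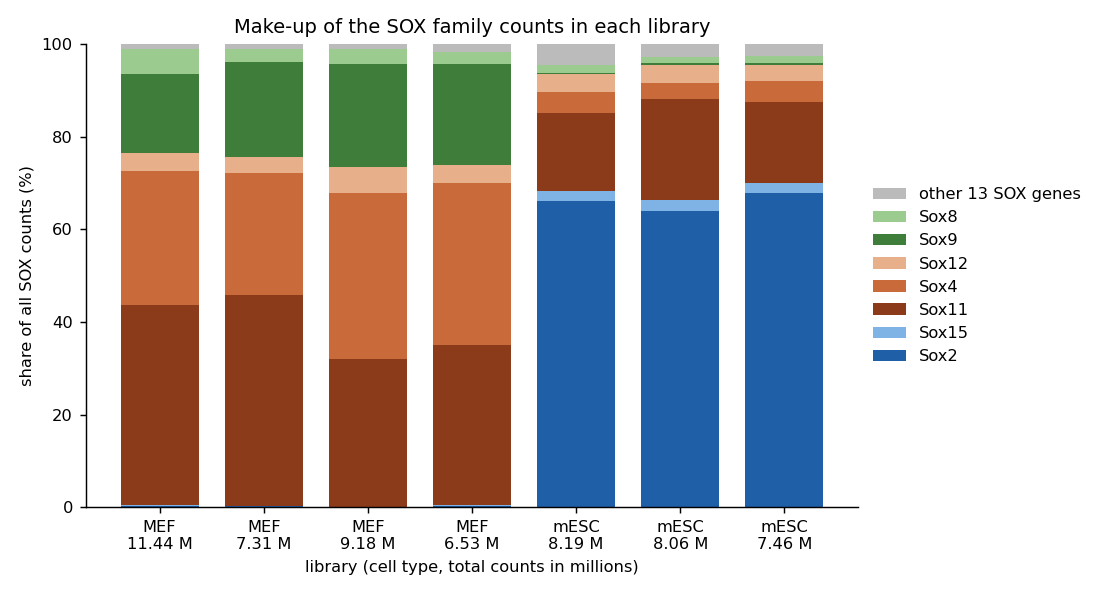
Share of each SOX gene in the summed counts of all 20 SOX genes (vertical axis, percent), with 1 bar per library labelled by cell type and total counts (M). Sox11, Sox4 and Sox9 fill most of the 4 MEF bars, and Sox2 fills 64.0% to 67.9% of the 3 mESC bars.

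Levels of different SOX genes were set beside each other as CPM per kilobase of annotated exon. The libraries were primed at the poly(A) tail and biased to the 3′ end, so counts need not grow with transcript length, and dividing by length then lowers long transcripts. On this scale MEFs were led by Sox4 at 57.9 ± 6.43 (SD, n = 4), Sox9 at 43.7 ± 6.82 and Sox11 at 41.8 ± 10.7 CPM per kilobase. Sox4 was apart from Sox9 but overlapped with Sox11, and Sox9 and Sox11 overlapped. Sox8 and Sox12 followed at 9.76 and 8.45 and overlapped, and Sox2 stood below them at 1.13 CPM per kilobase. In plain CPM the mean of Sox11 was above that of Sox4, but their ranges overlapped, at 267 to 459 CPM and 252 to 322 CPM.

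The order in mESCs was led by Sox2 at 297 ± 22.6 CPM per kilobase (SD, n = 3). Sox15 at 24.2 ± 3.47 and Sox11 at 20.9 ± 5.02 overlapped, and so did Sox4 at 8.08 and Sox12 at 7.93 CPM per kilobase. Sox8 at 4.39 was apart from its neighbours. From Sox13 at 1.54 CPM per kilobase downwards, each gene overlapped with the next. The short Sox15 transcript, 861 exon bases, gained most from the division by length, since in plain CPM it stood at 20.9 against 174 for Sox11.

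Promoter sequence was looked at for the 8 factors with an entry in the RefSeq table of GRCm38.p6 (no entry for Sox9 and Sox3). Each window holds 250 bases before and 50 after a transcript start, and the RefSeq start need not be that of GENCODE. The windows of Sox2, Sox15 and Sox11 lie wholly upstream of the GENCODE gene, which starts at chr3:34650405 for Sox2 and chr11:69655314 for Sox15. The Sox5 window, at chr6:143947057-143947356, lies inside the GENCODE gene, whose outermost start is at chr6:144781977. Sox2 and Sox15 are printed as the strongest risers and Sox4 as the most abundant factor per kilobase in MEFs, 5′ to 3′ on the strand of the gene. Capitals mark matches on either strand to the SOX core ACAAT, the octamer ATGCAAAT, the GC box GGGCGG, the CCAAT box CCAAT and TATAAA.
Sox2 (chr3:34649745-34650044, plus strand): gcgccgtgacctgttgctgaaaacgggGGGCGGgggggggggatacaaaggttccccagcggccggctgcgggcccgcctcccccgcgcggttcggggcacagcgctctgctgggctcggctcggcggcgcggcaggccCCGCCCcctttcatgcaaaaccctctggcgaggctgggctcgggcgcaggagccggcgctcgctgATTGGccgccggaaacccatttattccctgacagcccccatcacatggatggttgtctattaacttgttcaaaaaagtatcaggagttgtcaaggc
Sox15 (chr11:69654787-69655086, plus strand): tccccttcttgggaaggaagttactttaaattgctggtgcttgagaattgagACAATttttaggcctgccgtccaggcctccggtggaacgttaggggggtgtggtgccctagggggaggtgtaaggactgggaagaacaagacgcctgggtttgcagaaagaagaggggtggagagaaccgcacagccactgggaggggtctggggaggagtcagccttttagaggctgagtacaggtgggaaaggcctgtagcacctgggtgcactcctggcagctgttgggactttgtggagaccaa
Sox4 (chr13:28953650-28953949, minus strand): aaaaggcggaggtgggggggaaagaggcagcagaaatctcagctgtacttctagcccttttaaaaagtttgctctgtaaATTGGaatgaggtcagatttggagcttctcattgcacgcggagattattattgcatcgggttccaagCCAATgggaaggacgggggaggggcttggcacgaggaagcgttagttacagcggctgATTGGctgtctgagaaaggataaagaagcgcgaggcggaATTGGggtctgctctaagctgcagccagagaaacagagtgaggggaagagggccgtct

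The 2 risers differed in base composition. The Sox2 window held 27 CpG pairs, and the Sox15 window held 5, against a median of 7 over 32851 promoters of the same length. Sox4 held 12, Sox11 21, Sox21 22, Sox13 40, Sox12 47 and Sox5 3. The SOX core was found in Sox15 and Sox5, and in 31.0% of all promoters. The GC box was found 4 times in Sox12 and 2 times each in Sox2 and Sox11, with 35.7% of all promoters holding it. The CCAAT box, which shares its last 4 letters with the SOX core, was found 4 times in Sox4 and once each in Sox2, Sox11 and Sox12 (37.4% of all promoters), and the octamer bound by POU factors only in Sox12 (1.74%). TATAAA was in none of the 8 windows. These matches are a description of letters and not of bound sites.

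The genes that SOX factors work with were taken from lists, and each list is described by its counts. Of 9 POU factors and other partners, 5 were higher and 1 was lower in mESCs, beside 22.8% higher and 25.0% lower over all tested genes. Nr0b1, an orphan nuclear receptor of stem cells, had the largest difference at 8.64 ± 0.358 on the log2 scale, followed by Sall4 at 7.49 ± 0.258 and Pou5f1 at 7.46 ± 0.313. Pou5f1 was read at 12, 2, 4 and 3 counts in MEFs and at 1148, 1091 and 861 in mESCs, so both partners of the SOX2 and OCT4 pair were high in every mESC library. Pou3f3, a POU factor of the nervous system and kidney, was lower by 3.00 ± 0.373. Pou3f1, Pou3f2 and Pax6 did not pass.

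All 7 listed genes with known sites for SOX2 and OCT4 were higher in mESCs, as Sox2 was, against 22.8% of all tested genes. Their log2 fold changes ran from 4.65 (Lefty1) to 7.46 (Pou5f1), with Fgf4, a growth factor gene with such a site in its enhancer, at 6.03 ± 0.225 and Utf1 at 6.83 ± 0.241. Several of the 7 are pluripotency markers as well, so the lists overlap. The list was also chosen with earlier results of these data known. Its count is therefore a description, and whether these genes respond to SOX2 was not tested. Of the SOXC target list, Tubb3, a neuronal tubulin, was lower by 1.71 ± 0.194 and Tead2 by 0.46 ± 0.170 (adjusted p = 3.89e-05 and 0.0466, edgeR), and Dcx had too few counts to be tested.

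The cartilage genes activated by SOX9 with SOX5 and SOX6 went in both directions. Of 12 listed, 8 were tested, 3 were lower and 2 higher in mESCs, and 3 did not pass. Over all tested genes 47.9% were called, so the count by itself says nothing particular about this list. Col11a1, a fibrillar collagen, was by far the most abundant of them, at 204 CPM in MEFs and 4.44 CPM in mESCs (log2 fold change -5.79 ± 0.221, adjusted p = 2.49e-08, edgeR). Col2a1, the main cartilage collagen, had 89, 82, 45 and 28 counts in MEFs and 5, 13 and 34 in mESCs, a log2 fold change of -1.94 ± 0.633. Col9a1 stood at -3.72 ± 1.13. Mia (3.50 ± 0.832) and Acan (2.47 ± 0.883) were higher in mESCs, the latter at 0 to 6 counts in MEFs and 13 to 20 in mESCs. Apart from Col11a1, no gene of this list had a mean above 7.05 CPM in MEFs, where the mean of Sox9 was 181 CPM.

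TCF and LEF factors carry an HMG box of the same fold and bind DNA for WNT signalling. Tcf7 was higher in mESCs by 2.24 ± 0.469 (adjusted p = 0.00246, edgeR), while Tcf7l2 and Tcf7l1 were lower by 1.62 ± 0.207 and 0.89 ± 0.221. Lef1 did not pass (0.59 ± 0.598, adjusted p = 0.456, edgeR). Of 5 genes whose products modify or carry SOX proteins, Parp1, the poly(ADP-ribose) polymerase, was higher by 2.13 ± 0.139 and Xpo4, a nuclear transport receptor, by 1.58 ± 0.291. Setd7, a lysine methyltransferase, was lower by 1.28 ± 0.266, and Carm1 and Wwp2 did not pass. Over all tested genes 47.9% were called.

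**Figure D5:**
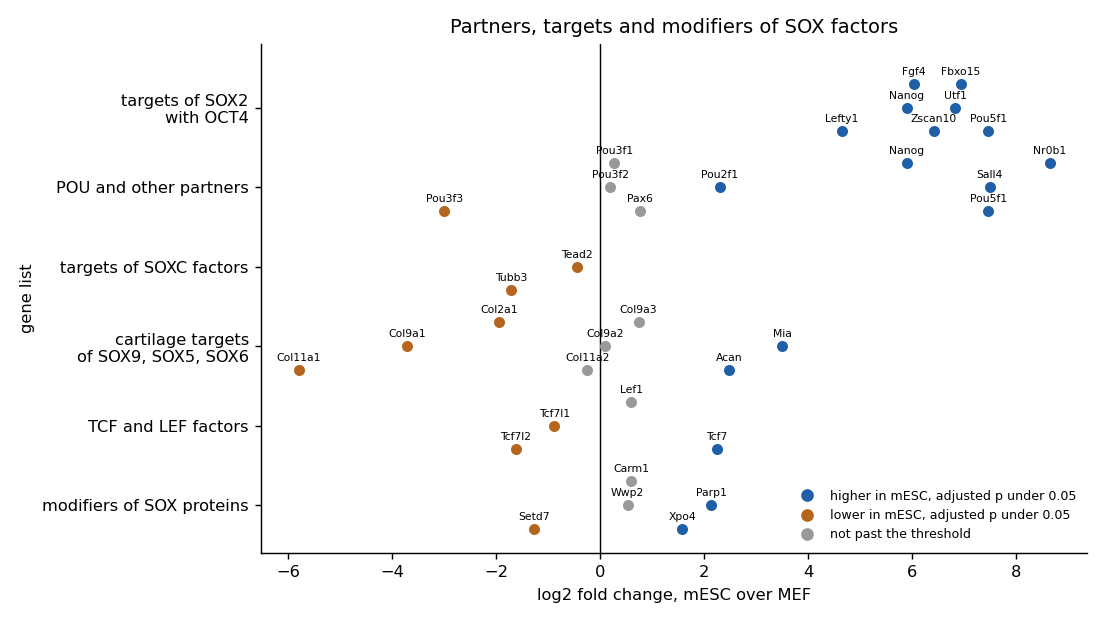
Log2 fold change of mESCs over MEFs (horizontal axis) for the tested genes of 6 lists of SOX partners, targets and modifiers and of the TCF and LEF factors, with 1 labelled point per gene and points set apart vertically for legibility only. All 7 targets of SOX2 with OCT4 lie to the right, from 4.65 to 7.46, and the cartilage list lies on both sides of 0.

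Several SOX genes also mark other cell types, so the marker lists of those types stand beside them. Over all tested genes, 22.8% were called higher and 25.0% lower in mESCs, and the counts of these lists are to be read beside that. Of 6 neural progenitor markers, 5 were tested, and Sox1 and Ncan were higher while Nes and Fabp7 were lower in mESCs. The summed level of that list was 79.5 to 150 CPM in MEFs and 38.3 to 52.6 CPM in mESCs. Of 5 neural crest and glia markers, 3 were tested and all 3 were higher in mESCs (22.8% over all tested genes), led by Foxd3 at 6.69 ± 0.566, which stem cells also express. In the endothelial list, Pecam1 was the 1 gene of 4 tested that passed, and Cdh5, a defining gene, had 0 to 20 counts in MEFs and 0 to 3 in mESCs. None of the 4 keratinocyte markers passed, at a summed level of 108 to 132 CPM in MEFs and 124 to 160 CPM in mESCs. Of the 5 extraembryonic endoderm markers, Dab2 was the 1 that passed of 2 tested, lower in mESCs. The part of other cell types in the levels of Sox21, Sox13 and the other low SOX genes was not tested.

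For 3 factors, the genes whose pattern over the 7 libraries was most like theirs were found by the root mean square difference of log2CPM after each gene was centred on its own mean. For Sox2 these were Cyct, a germ cell cytochrome c (0.281), and the zinc finger genes Zfp988 (0.339) and Zfp534 (0.349). For Sox11 they were Ugcg (0.0918), Sh3rf1 (0.113) and Map4k4 (0.128), with log2 fold changes from -1.27 to -1.25. Ccnd2, the cyclin D2 gene (0.149), Col6a3, a collagen VI chain (0.189), and Nsg1 (0.190) were closest to Sox9. The 7 libraries are of 2 cell types, so genes with a like difference between them score as alike.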

How the data were processed

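The 7 RNA-seq libraries (4 of MEFs, 3 of mESCs) were used. Reads had been aligned by the authors with STAR (mm10), deduplicated by molecular identifier with Je and assigned to exons with featureCounts, and the deposited counts are whole numbers without normalization. Per the labels, libraries were primed at the poly(A) tail and 3′-biased. The processing notes name STAR 2.4.2a, while the study's methods name a later version, so the version used is not settled. The annotation and strand setting of the counting are not given in the sources used here. Column names give the cell type, a 1 shared by all, a letter (O for every MEF column, Y for every mESC column) that the sources used here do not explain, and a number whose link to the samples is not given. Libraries are therefore named by total counts, and 0 columns were left unused. Symbols in the form of dates (26 genes, 0.249% of counts) stayed in the totals.

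Differential expression was computed in R 4.3.3 with edgeR 4.0.16 (limma 3.58.1), by TMM scaling, filterByExpr and a quasi-likelihood test with cell type as the only term. Calls were made at an adjusted p of 0.05 (Benjamini-Hochberg). Standard errors are on the log2 scale. For edgeR they were derived as the absolute log2 fold change over the square root of the quasi-likelihood F statistic. Relative to library size alone, TMM scaling lowered the difference by 0.28 (log2). Single genes were also compared by an exact two-sided permutation test over the 35 ways to divide 7 libraries into 4 and 3. Pairs of libraries of 1 cell type differed by 15.6 to 31.1 in chi-square per degree of freedom over genes with at least 10 counts, so no pair was 1 library deposited again. This check does not show that libraries came from separate cultures. The 10 factors and all gene lists were chosen with earlier results of these data known. Genes named are the 10 factors, the other SOX genes, up to 4 genes per list with the largest absolute log2 fold change, and the 3 genes nearest in pattern to Sox2, Sox11 and Sox9. Others are named where a list is counted gene by gene.

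Loci and exon lengths are from GENCODE M21 on GRCm38, which held 96.2% of the listed symbols, and promoters from RefSeq. Protein sequences were not used here, and coding bases of the HMG box were compared in their place.

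The alternatives were DESeq2 1.42.0, no scaling, RLE size factors, no filter beyond 1 count, a filter of 10 counts in every library of 1 cell type, a test against a fold change of 2, a prior count of 0.5, log2(CPM + 1), shares per kilobase and each library left out in turn. The scripts were tested on simulated data.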

Additional observations from a re-analysis of the deposited data

Results flagged for a closer look

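In 3 of the 18 SOX genes with counts in MEFs, 1 of the 4 MEF libraries stood far from the others for its group's range, and chance gives such a gap in about 1 of 20 groups of continuous values. That rate does not hold for counts near 0, where 1 library with any count gives the widest possible gap, as for Sox3 and Sry. For Sox3, the MEF library of 6528643 counts held 2 counts (0.306 CPM) and the others 0, which is below the floor of 3 counts. For Sox18, the same library held 8 counts, or 1.23 CPM, against 0.273 CPM in the next. For Sry, 1 count (0.109 CPM) in the MEF library of 9176467 counts stood against 0 in the others, which is also below the floor.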

How the results depend on the processing

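No paired analysis was possible because the count columns do not carry the sample numbers of the labels. The test against a fold change of 2 reuses the log2 fold changes of the main fit, so it could not change a sign. Over 13 alternatives, this test included, the 9 tested factors gave 117 log2 fold changes, none with a changed sign. Of these, 111 kept their side of the threshold, Sox11 lost its call against a fold change of 2 (adjusted p = 0.145), and Sox13 gained one in 5, with adjusted p of 0.0334 by DESeq2, 0.0322 without scaling, 0.00252 without the filter, 0.0360 without the MEF library of 7312679 counts and 0.0474 without the mESC library of 8057985 counts (edgeR otherwise). Without the filter 5 factors were higher in place of 3, with Sox13 and Sox3 added (Sox3 adjusted p = 0.0441, edgeR). Outside the 10 factors, Sox8 lost its call against a fold change of 2 (adjusted p = 0.0864, edgeR), and Sox6 turned sign when libraries were left out (-0.19 to 0.63). Over all genes, 3991 passed the test against a fold change of 2 (1714 higher, 2277 lower). Without scaling, 5180 genes were higher and 3345 lower (60.8% of calls higher, against 47.7%). In CPM over library totals, an alternative chosen after seeing the data, 8 factors did not overlap in place of 7, with Sox13 added, against 55.3% of all tested genes. Per kilobase, the shares of SOX counts in MEFs and mESCs were 0.759% and 80.5% for subgroup B1, 65.5% and 9.93% for subgroup C, 32.6% and 1.44% for subgroup E, and 0.691% and 80.1% for Sox2. Depth limits Sox3, Sox5, Sox21, Sox15 and Sox13, which have few counts in at least 1 cell type.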

Other observations

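Subgroup F, known from endothelium and from the endoderm that forms around the embryo, was not among the 10 factors and appeared in mESCs at low levels. Sox17, an endoderm factor, had 0 counts in all 4 MEF libraries and 51, 41 and 9 counts in the mESC libraries. Its pooled mESC level was 48.9 times a floor of 3 counts over the MEF group. The mESC libraries spread from 1.21 to 6.22 CPM, so this ratio is not a lower bound for each library. Sox7 had 4, 0, 1 and 1 counts in MEFs and 35, 20 and 6 in mESCs, and Sox18 had 13 counts in all over each cell type. Across the 3 mESC libraries, Foxa2 (21, 18 and 4 counts), Gata6 (240, 136 and 75) and Dab2 (422, 162 and 85) stood in the same order as Sox17 and Sox7, while Gata4 (18, 7 and 19) did not. Gata6 and Dab2 were also present in MEFs, at 169 to 291 and 373 to 899 counts. Sox30, the subgroup H gene known from the testis, had 1, 2, 4 and 3 counts in MEFs and 15, 38 and 14 in mESCs (log2 fold change 2.89 ± 0.693, edgeR adjusted p = 0.00550). Without the mESC library of 8057985 counts the log2 fold change of Sox30 was 2.26 (edgeR adjusted p = 0.0464). The cell source of these transcripts was not tested.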
